A study of Mus musculus with 3 samples.

Results

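A set of 10 genes of bone morphogenetic protein (BMP) and transforming growth factor beta (TGF-beta) signalling was followed across the cell classes of mouse small intestine. They are the receptor genes Acvrl1, Eng, Bmpr2, Tgfbr2 and Tgfbr3, the inhibitory Smad genes Smad6 and Smad7, and the target genes Id1, Id2 and Id3. They were chosen by symbol, and all 10 were found among the 32285 genes of the matrices. Single-cell RNA sequencing had been run on 3 libraries (GUT1, GUT2 and GUT3, called libraries 1, 2 and 3) from wild-type C57Bl/6 females aged 9-10 weeks, with tissue of 4 animals in each library and the duodenum left out. The epithelium was stripped, and the rest was digested with enzymes for the same time and at the same temperature in every library. The part of this digestion in the levels below was not tested. Live CD45-negative cells positive for CD31 and podoplanin were then sorted, a gate meant for lymphatic endothelial cells (LEC). All libraries have this one genotype and no treatment, so the comparisons lie between cell classes and between states of LEC inside each library. The other classes are what passed that gate, and 129 to 444 cells of each were at hand for the tests below. The labels do not say whether libraries share animals, so p-values measure only how far differences inside each library varied among these 3 libraries. That variation may be technical.

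Ligands of the BMP family that circulate in blood bind ALK1 (the product of Acvrl1) together with the type II receptor encoded by Bmpr2, and endoglin (Eng) presents the ligand. The activated complex phosphorylates SMAD1 and SMAD5, which enter the nucleus with SMAD4 and raise transcription of the Id genes and of Smad6 and Smad7. TGF-beta binds the type II receptor encoded by Tgfbr2, which recruits the type I receptor encoded by Tgfbr1 and acts through SMAD2 and SMAD3, and betaglycan (Tgfbr3) presents TGF-beta2. In blood vessels the ALK1 and endoglin branch is known for vascular malformations when it is lost, and the Id genes encode inhibitors of basic helix-loop-helix transcription factors.

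Upstream sequence is shown for Smad6, Eng and Tgfbr2, since Smad6 was nearly absent from LEC, Eng was lower in LEC than in blood endothelial cells (BEC), and Tgfbr2 had its highest level in LEC. RefSeq's promoter table (GRCm38.p6) matched 6 of the 10 genes, and the 250 bases before the RefSeq start are printed 5′ to 3′ on the strand of the gene. Capitals mark GGCGCC, a palindromic letter run bound by SMAD1 and SMAD5, and GTCT or its reverse complement AGAC, the letters of the SMAD-binding element. Both strands were searched, and the motifs do not overlap each other in these windows. The windows are chr9:64022060-64022309 on the minus strand for Smad6, chr2:32646345-32646594 on the plus strand for Eng, and chr9:116175364-116175613 on the minus strand for Tgfbr2.
Smad6: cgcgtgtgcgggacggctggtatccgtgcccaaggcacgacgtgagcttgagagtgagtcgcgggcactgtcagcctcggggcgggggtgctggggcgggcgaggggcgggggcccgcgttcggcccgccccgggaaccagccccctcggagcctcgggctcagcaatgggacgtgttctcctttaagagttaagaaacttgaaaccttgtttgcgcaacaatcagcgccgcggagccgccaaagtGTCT
Eng: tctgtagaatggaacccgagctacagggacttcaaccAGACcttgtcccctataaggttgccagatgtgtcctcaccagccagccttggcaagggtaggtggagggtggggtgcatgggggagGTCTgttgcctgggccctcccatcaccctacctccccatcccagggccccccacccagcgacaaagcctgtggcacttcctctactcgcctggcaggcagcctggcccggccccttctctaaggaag
Tgfbr2: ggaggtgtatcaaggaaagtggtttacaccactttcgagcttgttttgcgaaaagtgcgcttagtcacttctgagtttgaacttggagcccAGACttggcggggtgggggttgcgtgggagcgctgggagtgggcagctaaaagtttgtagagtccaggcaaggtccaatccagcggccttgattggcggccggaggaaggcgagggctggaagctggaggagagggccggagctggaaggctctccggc
GGCGCC was found in none of these windows. It occurred once in the window of Bmpr2 and once in that of Id2, beginning 105 and 231 bases before the start, and in 9.54% of all 27025 windows of this length. GTCT or AGAC occurred in 83.0% of all windows. It was found once for Smad6, at the last bases before the start, once for Tgfbr2, once for Id2, and at 2 places each for Eng and Id3. GENCODE's starts of Bmpr2, Id2 and Id3 lie further upstream than the RefSeq starts, so their windows fall inside the gene spans printed below. A match is a description of letters, and a missing one says only that they are not in this window.

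Of 24541 barcodes, 22534 had at least 500 genes and at most 15% mitochondrial UMIs (unique molecular identifiers, the counted molecules). LEC were cells with at least 1 UMI of Prox1 and at least 5 of Lyve1. There were 18954 of them, 5689, 5001 and 8264 in libraries 1, 2 and 3. Of the 4 lymphatic markers that these thresholds did not use, 3 were above BEC in LEC of every library: Ccl21a averaged 10010 CPM (UMIs scaled to the same total in every class and library) in LEC and 143 CPM in BEC, Flt4 1482 and 119 CPM, and Pdpn 244 and 3.995 CPM. Pdpn encodes podoplanin, which the sort used, and was at 232 CPM in fibroblasts. The other marker, Mmrn1, was at 0 CPM in every class. The 4 together summed to 10940 to 12220 CPM in LEC, against 243 to 297 CPM in BEC, most of it Ccl21a. Other classes had no Prox1 and at least 2 UMIs of at least 3 of their own markers and of no other class, and they comprised 129 BEC, 444 fibroblasts, 156 mural or smooth muscle cells, 543 epithelial, 214 myeloid and 116 T or innate lymphoid cells. Summed BEC markers reached 6571 to 9066 CPM in BEC, against 671 to 720 CPM in LEC. BEC of library 3 also carried 422 CPM of fibroblast and 719 CPM of mural markers, against 5.28 to 20.9 and 56.5 to 143 CPM in BEC of the other libraries, and the part of these in the results was not tested. Library 2 stood apart: LEC made up 74.6% of its cells, against 89.5% and 87.3% in libraries 1 and 3, and 5.17% were epithelial, against 1.65% and 0.961%. Library totals were 58857545, 69231794 and 74571090 UMIs as deposited, and each pair of libraries shared 13 to 30 barcodes. Among LEC, 456 barcodes also passed the markers of another class (1.02%, 5.02% and 1.78% of LEC in libraries 1, 2 and 3). No doublet caller was run, so these mixed barcodes may hold more than 1 cell. They stay in the main values, and results whose call changes or whose value moves by more than 1.5 times are also given without them.

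The receptor genes were all found in LEC, and the inhibitory Smad genes were low there. Tgfbr2 was the most abundant of the 10 genes in LEC, with 979, 888 and 910 CPM in libraries 1, 2 and 3. Its locus is chr9:116084293-116175360 (GRCm38, minus strand). Eng (chr2:32646595-32682669, plus strand) followed with 354, 328 and 330 CPM, and Bmpr2 (chr1:59763400-59879014, plus strand) with 251, 204 and 209 CPM. Tgfbr3 (chr5:107106570-107289629, minus strand) had 144, 132 and 132 CPM and Acvrl1 (chr15:101128522-101145336, plus strand) 62.3, 62.5 and 57.4 CPM. These are 3′ tag counts per transcript and not per length, so levels of different genes are set side by side only on the CPM scale. Among the Id genes, Id3 (chr4:136143497-136145755, plus strand) had 133, 164 and 154 CPM in LEC, Id1 (chr2:152736251-152737410, plus strand) 37.8, 64.1 and 36.7 CPM, and Id2 (chr12:25093799-25097140, minus strand) 17.4, 25.9 and 23.7 CPM. Smad7 had 13.4, 17.7 and 14.1 CPM, and Smad6 (chr9:63953076-64022059, minus strand) 0.222, 1.56 and 0.418 CPM. The high values of Id1 and Smad6 were those of library 2.

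**Figure D1:**
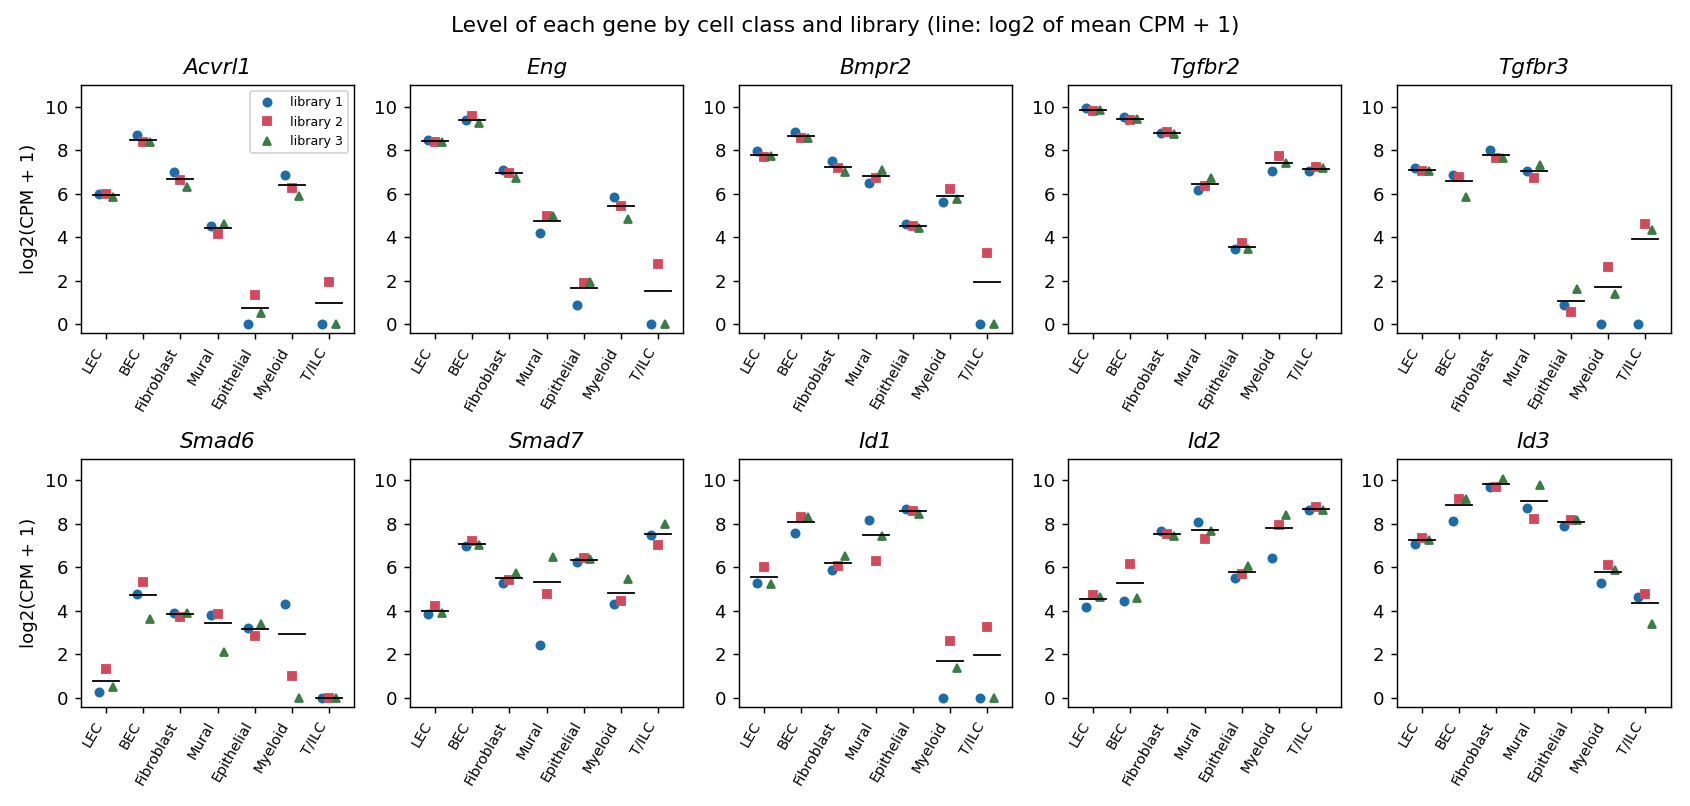
Level of each gene on a log2(CPM + 1) axis in 7 cell classes, with 1 point per library and a line at the log2 of the mean CPM plus 1. By mean CPM, Tgfbr2 is highest in LEC, Acvrl1, Eng, Bmpr2 and Smad6 are highest in BEC, and Smad7 and Id2 are lowest in LEC. Single libraries depart from these orders for Smad6, Smad7 and Id2.

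Across the 7 classes present in all libraries, LEC held the highest mean level of Tgfbr2 and the lowest of Smad7 and Id2. The order for Tgfbr2 ran from LEC (mean 926 CPM) over BEC (699 CPM), fibroblasts (443 CPM), myeloid (170 CPM), T or innate lymphoid (141 CPM) and mural cells (85.2 CPM) to epithelium (10.7 CPM), and of the neighbours in that order only the myeloid and T or innate lymphoid libraries overlapped. Acvrl1 was highest in BEC with a mean of 359 CPM, and the next classes, fibroblasts (99.95 CPM), myeloid cells (82.9 CPM) and LEC (60.7 CPM), stood apart from BEC in every library. The fibroblast and myeloid ranges overlapped, as did the myeloid and LEC ranges. Eng and Bmpr2 had the same leading order, BEC, LEC, then fibroblasts, with no overlap between these 3 classes. Tgfbr3 was highest in fibroblasts (219 CPM), and the ranges of LEC, mural cells and BEC overlapped with their neighbours.

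The inhibitory and target genes had other orders. Smad6 averaged 25.9 CPM in BEC, 13.4 in fibroblasts, 9.99 in mural cells, 8.03 in epithelium, 6.67 in myeloid cells and 0.733 in LEC. It had 0 UMIs in T or innate lymphoid cells. The Smad6 ranges of BEC and fibroblasts overlapped, and in library 3 BEC (2 UMIs, 11.4 CPM) lay below fibroblasts (13.8 CPM). Smad7 was highest in T or innate lymphoid cells (187 CPM) and BEC (136 CPM), whose ranges overlapped, and lowest in LEC (15.1 CPM). Id1 was highest in epithelium (384 CPM), followed by BEC (273 CPM). Id2 was highest in T or innate lymphoid cells (414 CPM), where it is a known regulator of lymphoid fate, and the LEC and BEC ranges overlapped at the low end. Id3 was highest in fibroblasts (913 CPM), and the ranges of fibroblasts, mural cells, BEC and epithelium overlapped from neighbour to neighbour, all above LEC (150.4 CPM). The 11 glial or neuronal cells of library 2 had 135 UMIs of Id3, or 1733 CPM.

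Genes most like each member were found by Pearson correlation of log2(mean CPM + 1) over these 7 classes, among 10201 genes, as a description with no test. Acvrl1 was most like Mylip (r = 0.992) and Lifr (r = 0.991), Eng like Sav1 (r = 0.994) and Ccnl1 (r = 0.989), and Tgfbr2 like Slco3a1 (r = 0.989) and Setd2 (r = 0.988). Bmpr2 was most like Sept10 (r = 0.985) and Tgfbr3 like Pkd1 (r = 0.991). Smad6 was most like Kitl (r = 0.972), Smad7 like Arap2 (r = 0.991), Id1 like Plp2 (r = 0.975), Id2 like Traf3 (r = 0.925) and Id3 like Gstm2 (r = 0.983).

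LEC were first set against BEC, the closest class. Of the 10 genes, 7 were lower in LEC and none was called higher by edgeR's quasi-likelihood test with library as a block and Benjamini-Hochberg adjustment over all genes tested. The 7 are Acvrl1, Eng, Bmpr2, Smad6, Smad7, Id1 and Id3. Over all 13281 genes tested, 19.0% were called, 10.5% higher and 8.48% lower in LEC. The median log2 fold change of the 10 genes was -1.30, against 0.23 over all genes tested. At an unadjusted p under 0.05, 2 of the 10 genes were higher and 8 lower in LEC, and DESeq2 called 0 higher and 7 lower.

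Among the receptors, Acvrl1 differed most: it had 62.3, 62.5 and 57.4 CPM in LEC of libraries 1, 2 and 3, against 417, 329 and 331 CPM in BEC. The libraries did not overlap, and the level in BEC was 5.91 times that in LEC (log2 fold change -2.55 ± 0.19 (SE), adjusted p = 9.42e-14). Eng had 354, 328 and 330 CPM in LEC, against 660, 762 and 599 CPM in BEC (log2 fold change -0.999 ± 0.17, adjusted p = 9.95e-06). Bmpr2 had 251, 204 and 209 CPM in LEC, against 454, 372 and 371 CPM in BEC (log2 fold change -0.85 ± 0.17, adjusted p = 0.000198). All 3 receptors of the ALK1 complex were thus below the BEC range in every library. Tgfbr2 had 979, 888 and 910 CPM in LEC, against 740, 672 and 685 CPM in BEC, also without overlap but in the other direction. Its log2 fold change of 0.40 ± 0.15 did not pass (adjusted p = 0.0602). Without the mixed LEC barcodes it was 0.47 and passed (adjusted p = 0.0119), as it did without library 2 (adjusted p = 0.0396). Tgfbr3 averaged 136 ± 6.97 CPM in LEC and 94.0 ± 32.2 CPM in BEC (SD, n = 3 each), and its log2 fold change of 0.50 did not pass in edgeR (adjusted p = 0.136). Without the mixed barcodes it passed narrowly (0.53, adjusted p = 0.048).

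The inhibitory Smad genes had the largest gaps to BEC. Smad6 encodes an inhibitor that acts mainly on SMAD1 and SMAD5, and BEC of libraries 1, 2 and 3 held 5, 19 and 2 of its UMIs. LEC held 0.222, 1.56 and 0.418 CPM of it, against 26.4, 39.8 and 11.4 CPM in BEC (log2 fold change -5.37 ± 0.95, adjusted p = 2.97e-05). Of the 103 Smad6 UMIs in all 18954 LEC, 94 lay in the 456 mixed barcodes and 9 in all others. Without the mixed barcodes the log2 fold change was -8.59 (adjusted p = 1.02e-12), and without library 1 it was -4.70 (adjusted p = 0.00787). After each cell was thinned to 3000 UMIs, Smad6 was seen in 9 of 18494 LEC (0.0487%), against 15 of 118 BEC (12.7%, exact 95% interval 7.29% to 20.1%). The share in LEC was below the 2.1% of epithelial cells, and in T or innate lymphoid cells it was 0 of 103 (exact upper limit 3.52%). No background level was estimated, so whether the few Smad6 UMIs in LEC exceed one was not tested. Smad7, which blocks both branches, had 13.4, 17.7 and 14.1 CPM in LEC, against 127, 149 and 131 CPM in BEC. The level in BEC was 8.99 times that in LEC, with no overlap (log2 fold change -3.17 ± 0.25, adjusted p = 4.98e-13).

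Id1 had 37.8, 64.1 and 36.7 CPM in LEC, against 190.2, 314 and 314 CPM in BEC (log2 fold change -2.57 ± 0.21, adjusted p = 9.31e-13). Id3 had 133, 164 and 154 CPM in LEC, against 280.0, 567 and 565 CPM in BEC (log2 fold change -1.61 ± 0.19, adjusted p = 8.24e-09). For both genes every LEC library was below every BEC library. Id2 had 17.4, 25.9 and 23.7 CPM in LEC, against 21.1, 71.1 and 22.8 CPM in BEC. The groups overlapped, the BEC values of libraries 1 and 3 rest on 4 UMIs each, and the log2 fold change of -0.90 did not pass (adjusted p = 0.0765). It passed without the mixed barcodes (-1.37, adjusted p = 0.000965), without library 1 (-1.03, adjusted p = 0.0425) and without library 3 (-1.20, adjusted p = 0.0254), and was -0.05 without library 2.

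**Figure D2:**
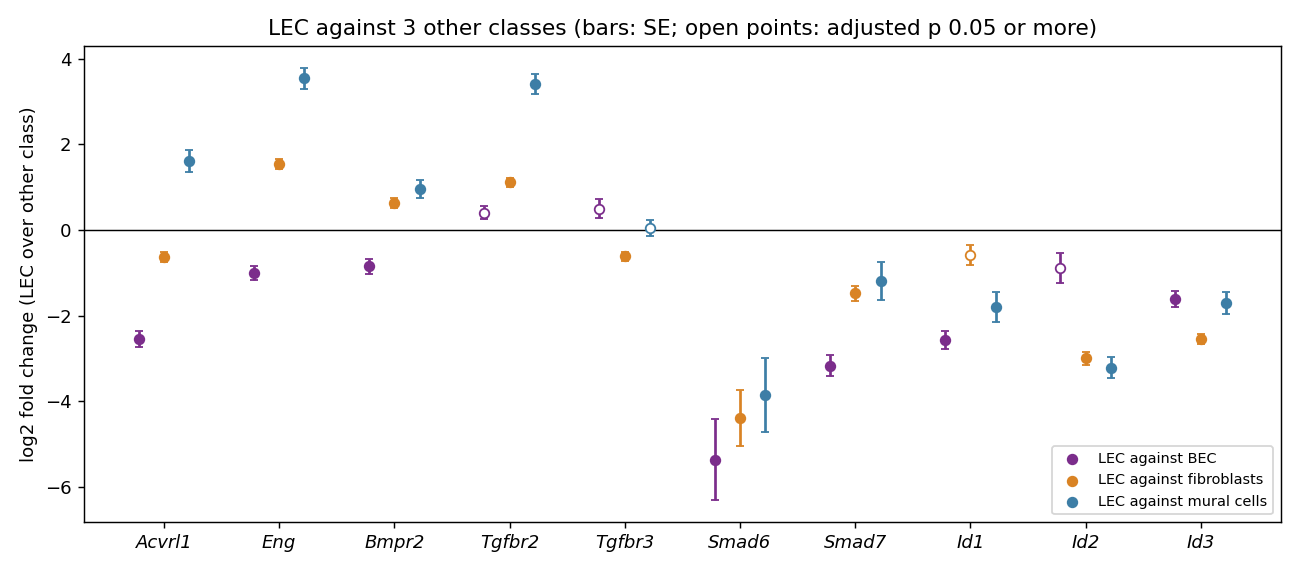
Log2 fold change of each gene in LEC over BEC, fibroblasts and mural cells, with SE; open points did not pass an adjusted p of 0.05. The 3 comparisons share the LEC sums. Smad6, Smad7, Id1, Id2 and Id3 lie below 0 in all 3 comparisons, and Eng and Bmpr2 lie below 0 against BEC only.

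Shares of cells are given next. In cells thinned to 3000 UMIs, Acvrl1 was seen in 16.5% of LEC, against 62.7% of BEC and 0 of 523 epithelial cells (exact upper limit 0.703%). Eng was seen in 63.6% of LEC, against 86.4% of BEC and 1.34% of epithelial cells. Tgfbr2 was seen in 92.3% of LEC, against 83.9% of BEC and 5.16% of epithelial cells. Smad7 was seen in 3.46% of LEC, against 32.2% of BEC, and Id1 in 8.72% of LEC, against 28.8% of BEC and 0.971% of T or innate lymphoid cells. Id3 was seen in 26.5% of LEC, against 53.4% of BEC and 4.85% of T or innate lymphoid cells. Median depths before thinning were 7266 UMIs in LEC, 5238 in BEC, 26440 in epithelial and 4674 in T or innate lymphoid cells, and without thinning Acvrl1 was seen in 36.4% of LEC and 78.3% of BEC. In total, 460 LEC and 11 BEC were too shallow and were left out. These intervals cover counting error only.

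In the rest of the pathway, 38 of 50 listed genes could be tested against BEC, and 9 were higher and 8 lower in LEC. The median log2 fold change of those tested was -0.09, against 0.23 over all genes. Among the transducers, 3 of 5 tested were higher and 1 lower. Smad1, a carrier of the BMP signal, averaged 348 ± 42.9 CPM in LEC and 137 ± 32.4 CPM in BEC (SD, n = 3 each; log2 fold change 1.34, adjusted p = 9.05e-07). Smad2, which carries TGF-beta signals, averaged 67.3 CPM in LEC and 32.3 CPM in BEC (adjusted p = 0.00665; 0.0879 without library 2, 0.0834 after thinning), and Smad4, the partner of both, 95.7 and 50.2 CPM (adjusted p = 0.0227; 0.178 without library 1, 0.0817 without library 3, 0.0752 after thinning). Both calls were lost with DESeq2 (adjusted p = 0.0623 and 0.13). Smad3 averaged 10.6 CPM in LEC and 34.2 CPM in BEC (adjusted p = 0.00248), a call lost without library 2 (adjusted p = 0.068) and after thinning (0.354).

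All 3 TGF-beta ligand genes were called higher in LEC by edgeR, and 2 of them by DESeq2. Tgfb1 had 287.4, 210.8 and 224.4 CPM in LEC, against 121.5, 133.9 and 228.3 CPM in BEC (edgeR adjusted p = 0.0385). Its ranges overlapped, and in library 3 it was not higher in LEC. Tgfb2 averaged 229 ± 16.4 CPM in LEC and 33.8 ± 17.97 CPM in BEC (log2 fold change 2.73, adjusted p = 1.36e-10), and Tgfb3 averaged 111 ± 11.1 CPM in LEC and 1.90 ± 3.30 CPM in BEC (adjusted p = 2.18e-11), where library 3 held 1 UMI and libraries 1 and 2 held 0, so that no fold is given. Inhbb, a subunit of activin B, averaged 0.685 ± 0.618 CPM in LEC and 177 ± 80.1 CPM in BEC (log2 fold change -8.07, adjusted p = 1.25e-17; -9.34 without library 2 and -9.39 without the mixed barcodes), and Bmp4 7.61 CPM in LEC and 29.0 CPM in BEC (-1.95, adjusted p = 0.00236, lost without library 2 at 0.0755; -2.75 without the mixed barcodes). The circulating ligands encoded by Gdf2 and Bmp10 had 0 UMIs in all barcodes. Of the other targets, 3 of 9 were lower in LEC, among them Id4 with 1.61 ± 1.17 CPM in LEC and 69.0 ± 62.9 CPM in BEC (log2 fold change -5.23, adjusted p = 3.08e-05; -3.71 without library 1, -6.68 without library 2 and -6.89 without the mixed barcodes) and Tmem100, a target of ALK1 in endothelium, with 4.56 CPM in LEC and 40.8 ± 30.4 CPM in BEC (log2 fold change -3.15, adjusted p = 1.04e-05; -2.36 after thinning, adjusted p = 0.0257). BEC of library 3 held 1 UMI of Tmem100, or 5.71 CPM, against 4.18 CPM in LEC of that library. Of the negative regulators, Pmepa1, which TGF-beta induces and which limits it, averaged 244 CPM in LEC and 78.6 CPM in BEC (adjusted p = 1e-07), and Fkbp1a, whose product holds type I receptors inactive, 650.1 and 394 CPM (adjusted p = 0.00171, lost without library 3 at 0.0864). Bambi, a decoy receptor, averaged 15.0 CPM in LEC and 71.5 CPM in BEC (adjusted p = 2.26e-07). Tgfbr1 averaged 12.6 CPM in LEC and 39.4 CPM in BEC (adjusted p = 0.00362, lost without library 1 at 0.0615), and Twsg1, which binds BMPs, 110.4 CPM in LEC and 22.9 CPM in BEC (log2 fold change 2.45, adjusted p = 2.85e-07; 3.10 without library 3).

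Against fibroblasts, with the same LEC sums, 3 of the 10 genes were higher in LEC and 6 lower, where 47.4% of 14118 genes were called, 26.1% higher and 21.3% lower. The median log2 fold change of the 10 genes was -0.62, against 0.11 over all genes tested. Eng, Tgfbr2 and Bmpr2 were higher. Eng had 354, 328 and 330 CPM in LEC, against 135, 122 and 105 CPM in fibroblasts (log2 fold change 1.54 ± 0.11, edgeR adjusted p = 1.62e-05). Tgfbr2 averaged 926 ± 47.5 CPM in LEC and 443 ± 11.7 CPM in fibroblasts (1.12 ± 0.10, adjusted p = 4.88e-05), and Bmpr2 averaged 222 ± 25.9 and 149 ± 27.0 CPM (0.63 ± 0.11, adjusted p = 0.00198). Acvrl1 averaged 60.7 ± 2.86 CPM in LEC and 99.95 ± 23.4 CPM in fibroblasts (-0.63 ± 0.13, adjusted p = 0.00437), and Tgfbr3 136 ± 6.97 and 219 ± 36.2 CPM (-0.61 ± 0.11, adjusted p = 0.00206).

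The Id genes and inhibitory Smads were lower in LEC than in fibroblasts, with Id1 as the exception. Id3 had 133, 164 and 154 CPM in LEC, against 836, 827 and 1076 CPM in fibroblasts (-2.54 ± 0.12, adjusted p = 2.09e-06). Id2 had 17.4, 25.9 and 23.7 CPM in LEC, against 206, 184 and 171 CPM in fibroblasts (-3.00 ± 0.16, adjusted p = 3.35e-06). Neither overlapped between the classes. Smad7 averaged 15.1 CPM in LEC and 44.1 CPM in fibroblasts (-1.48, adjusted p = 0.000267), and Smad6 0.733 and 13.4 CPM (-4.40, adjusted p = 0.000988; -7.48 without the mixed barcodes and -5.35 without library 2). Id1 had 37.8, 64.1 and 36.7 CPM in LEC, against 59.0, 65.4 and 92.3 CPM in fibroblasts, so that library 2 of LEC lay within the fibroblast range. The log2 fold change of -0.59 did not pass (adjusted p = 0.0694). It was -0.99 without the mixed barcodes (adjusted p = 2.68e-05) and -1.02 without library 2 (adjusted p = 2.16e-08).

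Of the 50 listed pathway genes, 44 were tested against fibroblasts, 12 higher and 24 lower in LEC. All 7 antagonist genes tested were lower. Of those with at least 20 CPM in fibroblasts, Fst had 0.351 CPM in LEC and 32.9 CPM in fibroblasts (log2 fold change -6.55, adjusted p = 0.000239; -7.90 without library 2, -5.63 without library 3 and -8.35 without the mixed barcodes), and Grem1, a BMP antagonist, 5.46 and 210.1 CPM (-5.42, adjusted p = 1.77e-05; -8.81 without the mixed barcodes). At the ligands, 6 of 9 tested were lower, with Bmp4 at 7.61 CPM in LEC and 564 CPM in fibroblasts (-6.27, adjusted p = 1.81e-06; -6.99 without the mixed barcodes), and the 3 TGF-beta genes were higher, with Tgfb1 at 241 CPM in LEC and 44.6 CPM in fibroblasts (adjusted p = 3.71e-06). The BMP type I receptor gene Bmpr1a averaged 2.22 ± 2.18 CPM in LEC and 103 ± 17.8 CPM in fibroblasts (log2 fold change -5.68, adjusted p = 6.76e-05; -8.69 without the mixed barcodes and -6.73 without library 2). Smad1 averaged 348 CPM in LEC and 80.7 CPM in fibroblasts (adjusted p = 5.67e-06). Hey1, a transcription factor gene shared with Notch signalling, averaged 56.5 CPM in LEC and 4.44 CPM in fibroblasts (4.16, adjusted p = 4.59e-05; 3.31 without library 2), and Tgfbi 46.5 and 420.2 CPM (adjusted p = 2.49e-06).

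Against mural cells, 4 of the 10 genes were higher in LEC and 5 lower, where 41.0% of 13755 genes were called, 23.7% higher and 17.2% lower. The median log2 fold change of the 10 genes was -0.57, against 0.27 over all genes tested. Eng had 354, 328 and 330 CPM in LEC, against 17.6, 30.9 and 30.1 CPM in mural cells (3.55 ± 0.25, edgeR adjusted p = 7.27e-08). Tgfbr2 had 979, 888 and 910 CPM in LEC, against 70.3, 81.3 and 104 CPM in mural cells (3.41 ± 0.23, adjusted p = 4.01e-08). Bmpr2 averaged 222 CPM in LEC and 110.2 CPM in mural cells (0.97, adjusted p = 0.00218), and Acvrl1 60.7 and 20.7 CPM (1.61, adjusted p = 0.000192), a call lost after thinning (1.01, adjusted p = 0.07). Tgfbr3 averaged 136 ± 6.97 CPM in LEC and 132.5 ± 27.96 CPM in mural cells, and its log2 fold change of 0.05 ± 0.19 did not pass (adjusted p = 0.866). Id2 averaged 22.3 ± 4.395 CPM in LEC and 212 ± 57.1 CPM in mural cells (-3.22, adjusted p = 1.17e-07). Id1 had 37.8, 64.1 and 36.7 CPM in LEC, against 290.2, 78.6 and 174 CPM in mural cells (-1.80, adjusted p = 0.00104; -1.195 without library 1 and -2.57 without library 2), and Id3 133, 164 and 154 CPM in LEC, against 426, 294 and 891 CPM in mural cells (-1.70, adjusted p = 9.1e-05; -2.29 after thinning). Mural libraries varied more than LEC for both, though none overlapped. Smad6 averaged 0.733 CPM in LEC and 9.99 CPM in mural cells (-3.86, adjusted p = 0.00253; -7.00 without the mixed barcodes, -3.15 without library 1 and -4.55 without library 2). Smad7 had 13.4, 17.7 and 14.1 CPM in LEC, against 4.396, 26.2 and 87.1 CPM in mural cells, where library 1 held 1 UMI. Its groups overlapped, and the call (-1.19, adjusted p = 0.044) was lost without library 3 (-0.37, adjusted p = 0.563), without the block (0.0737) and with DESeq2 (0.284), and was -2.21 after thinning.

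Of the listed pathway genes, 44 were tested against mural cells, 13 higher and 17 lower in LEC. Bmpr1a averaged 2.22 CPM in LEC and 116 CPM in mural cells (-5.92, adjusted p = 1.09e-07; -5.27 without library 1, -6.90 without library 2 and -8.91 without the mixed barcodes), Grem1 5.46 and 547 CPM (-6.93, adjusted p = 6.44e-09; -10.3 without the mixed barcodes) and Id4 1.61 and 181 CPM (-6.80, adjusted p = 1.24e-08; -7.52 without library 2, -6.20 without library 3 and -8.76 without the mixed barcodes). Smad1 averaged 348 CPM in LEC and 49.2 CPM in mural cells (adjusted p = 2.93e-07), and Tgfb2 229 and 27.6 CPM (adjusted p = 3.01e-07).

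Within LEC, the mixed barcodes differed from the others in the same way for every library. Summed over the 456 mixed barcodes of libraries 1, 2 and 3, Id1 had 165, 209 and 127 CPM, against 34.7, 37.4 and 32.7 CPM in the other LEC. Smad7 had 44.7, 57.4 and 51.9 CPM in mixed barcodes, against 12.7, 10.5 and 12.4 CPM in the others, and Id2 68.8, 80.2 and 105 CPM, against 16.2, 15.9 and 20.1 CPM. Tgfbr2 had 501, 340 and 445 CPM in mixed barcodes, against 990.2, 988 and 931 CPM in the others. These sets were picked by markers of other classes, so the values are a description with no test. With the mixed barcodes out, the level of Id1 in LEC was 34.9 ± 2.39 CPM (SD, n = 3), against 46.2 ± 15.5 CPM in all LEC. The log2 fold change of Id1 was then -2.98 against BEC and -2.15 against mural cells, and that of Smad7 was -3.57 against BEC, -1.88 against fibroblasts and -1.66 against mural cells (adjusted p = 0.000142 for the last of these).

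**Figure D3:**
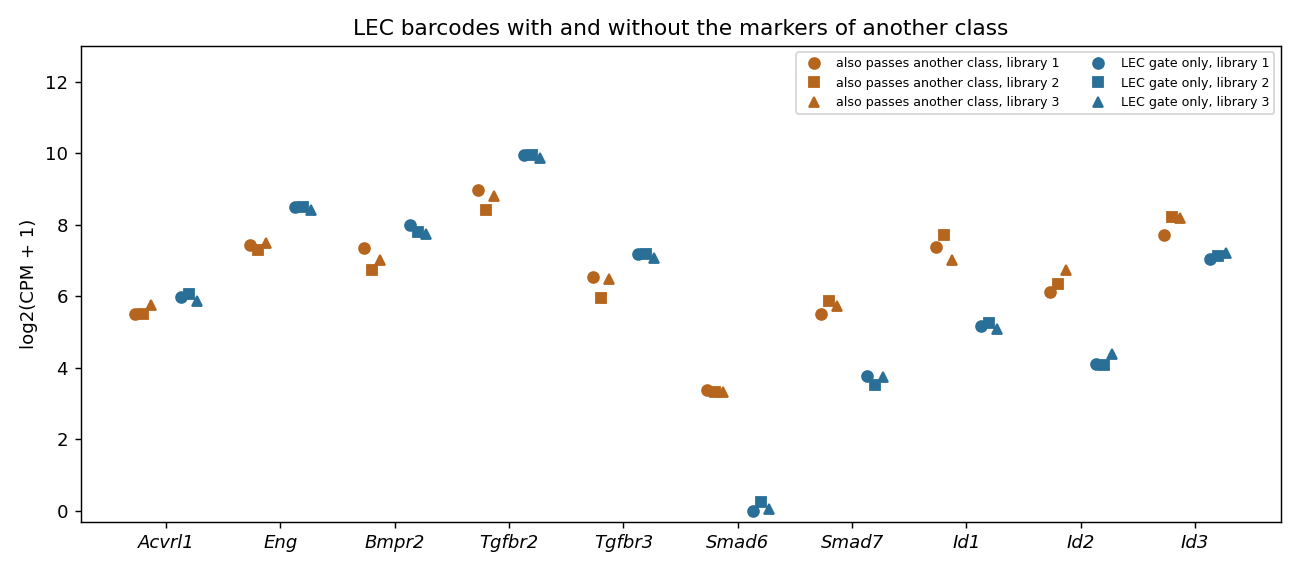
Level of each gene on a log2(CPM + 1) axis in LEC barcodes that also pass the markers of another class (left of each pair) and in the other LEC (right), with 1 point per library. Smad6 is near 9 CPM in the mixed barcodes and at 0 to 0.196 CPM in the others.

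The genes also differed in how evenly LEC carried them. Spread was measured as (variance minus mean) over squared mean of UMIs in LEC thinned to 3000 UMIs, which is 0 for counting error alone. The median over genes with a mean of at least 0.05 UMIs was 0.268 to 0.294 in the 3 libraries. The receptors lay around or below it: Tgfbr2 had 0.0749, 0.109 and 0.0924 in libraries 1, 2 and 3, Eng 0.0898, 0.118 and 0.0618, Acvrl1 0.183, 0.147 and 0.0685, Bmpr2 0.163, 0.256 and 0.270, and Tgfbr3 0.348, 0.267 and 0.390. The Id genes were far more uneven. Id3 had 2.52, 2.48 and 2.37, Id1 4.98, 4.32 and 4.19, and Id2 8.34, 8.46 and 7.75, above those of 96.3% to 99.4% of genes. Smad7 had 3.15, 7.29 and 2.03. Its mean in each library, and that of Id2 in library 1 (0.0436 UMIs), lay under the 0.05 UMIs set for the other genes. The high Smad7 value of library 2 was 3.78 without the mixed barcodes, and that of Id2 there was 5.43. Id1 had 4.22 to 4.97 and Id3 2.34 to 2.55 without them. Single LEC reached 13 UMIs of Id3 and 8 of Id1 after thinning. Smad6 is not given, since 9 LEC held it.

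**Figure D4:**
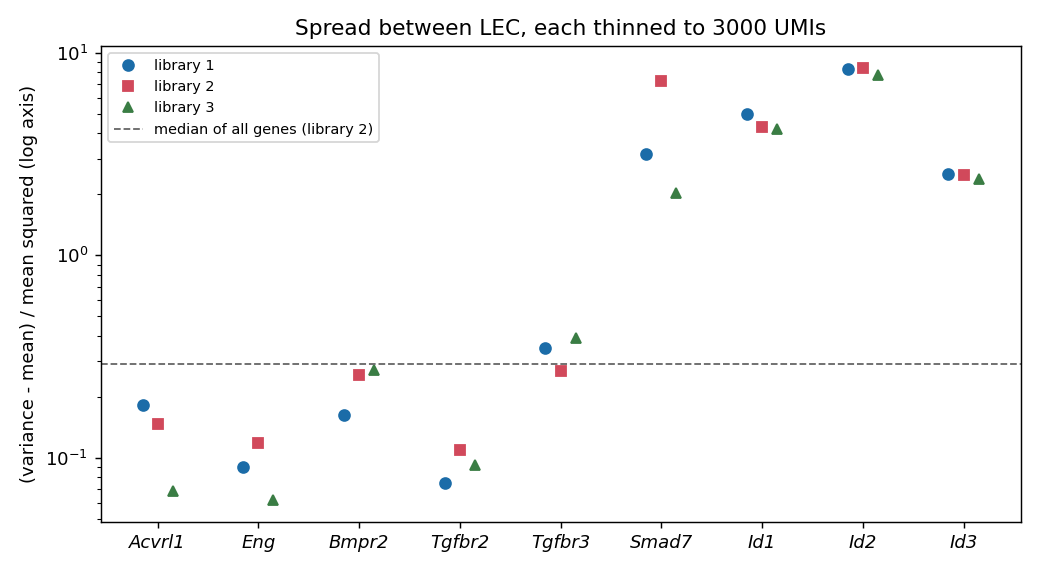
Spread of each gene between LEC, each thinned to 3000 UMIs, as (variance minus mean) over squared mean on a log axis, with 1 point per library; the dashed line is the median of all genes in library 2. The 5 receptor genes lie near or below the line, and Smad7 and the 3 Id genes lie between 2.03 and 8.46. Smad6 is left out for its low counts.

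Across thinned LEC, Id1 and Id3 had the highest Pearson correlation of any pair of the 10 genes in every library. Id3 was seen in 39.7%, 45% and 41.4% of LEC with Id1 in libraries 1, 2 and 3, against 23.2%, 25.8% and 25.9% of LEC without it. Pearson's r of log counts across thinned cells was 0.13 to 0.18 for this pair, and 0.13 to 0.17 without the mixed barcodes. It was 0.082 to 0.11 for Id2 and Id3 and 0.047 to 0.10 for Bmpr2 and Tgfbr2. Id1 was seen in 8.23%, 9.74% and 8.42% of LEC with Acvrl1, against 8.36%, 9.92% and 8.24% of those without. These are sparse counts from shared libraries, given as a description.

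Levels also varied with Malat1, a long non-coding RNA kept in the nucleus, given as a description with no test. LEC of each library were ranked by their share of it, and the third with the highest share is called Malat1-high, the third with the lowest Malat1-low. In Malat1-high LEC, Bmpr2 had 277, 252 and 230.3 CPM, against 221, 164 and 180.4 CPM in Malat1-low LEC. Acvrl1 ran the other way, with 53.7, 60.5 and 51.8 CPM in Malat1-high LEC and 71.2, 70.9 and 62.9 CPM in Malat1-low LEC. Tgfbr2 had 1025, 1010 and 961 CPM in Malat1-high LEC, against 935, 812 and 861 CPM in Malat1-low LEC. Malat1 itself was at 15150, 8213 and 9653 CPM in LEC and at 17190, 6046 and 12480 CPM in BEC of libraries 1, 2 and 3, and its part in the results above was not tested.

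Immediate early genes, which respond within minutes to stimuli and to tissue handling, split LEC in a further way. LEC were ranked in each library by the summed share of 9 of them (Fos, Fosb, Jun, Junb, Egr1, Ier2, Atf3, Zfp36, Dusp1), and the third with the highest share (IEG-high) was set against the third with the lowest (IEG-low). The cuts lie on a range, with 535 to 1157 LEC of a library within 10% of one. Only Id1 was called, lower in IEG-high LEC, where 36.7% of 13156 genes were called, 19.0% higher and 17.6% lower. Id1 had 27.6, 30.2 and 29.2 CPM in IEG-high LEC, against 48.2, 91.8 and 43.4 CPM in IEG-low LEC, without overlap (log2 fold change -0.75 ± 0.18, edgeR adjusted p = 0.0126). The 9 genes tested had a median log2 fold change of 0.06, against -0.01 over all genes, and at an unadjusted p under 0.05 the same 0 higher and 1 lower. DESeq2 called 0 of them.

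The call of Id1 shrank without the mixed barcodes, which made up 0.527% to 2.04% of IEG-high and 1.32% to 4.68% of IEG-low LEC. It was then -0.24 ± 0.08 (adjusted p = 0.0253), and it was lost without the block (adjusted p = 0.093) and with DESeq2 (0.0832). Smad7 did not pass in all LEC (0.09, adjusted p = 0.754). Without the mixed barcodes it averaged 12.8 ± 1.96 CPM in IEG-high LEC and 9.67 ± 0.483 CPM in IEG-low LEC (0.66 ± 0.10, adjusted p = 0.000236), and Id3 passed too (0.26 ± 0.08, adjusted p = 0.0193). Id3 then had 124.7, 125.2 and 151.9 CPM in IEG-high LEC, against 127.2, 146.2 and 127.0 CPM in IEG-low LEC. Its plain level was thus higher in IEG-high LEC of library 3 only, and the direction of its call depends on the scaling. The log2 fold changes of edgeR lie 0.245 above those of plain CPM here (median over genes), and the immediate early genes summed to 40660 to 49650 CPM in IEG-high and 2411 to 6799 CPM in IEG-low LEC. Tgfbr2 averaged 885 CPM in IEG-high and 1008 CPM in IEG-low LEC, a lower plain level, while its log2 fold change was 0.06 (adjusted p = 0.579). Id2 did not pass in all LEC (-0.17, edgeR adjusted p = 0.254). Of 11 alternatives, 1 called Id2, 3 called Smad7 and 3 called Id3. Smad6 had too few UMIs to be tested. Median depth was 7146 to 8558 UMIs in IEG-high and 6096 to 7454 in IEG-low LEC.

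Of the listed pathway genes, 17 of 37 tested were called higher in IEG-high LEC and 1 lower, beside 36.7% of all genes called. Of the 17, Acvr1, Smad2, Smad4, Smurf2 and Pmepa1 were higher in plain CPM in at most 1 library (Smad2 averaged 67.1 CPM in IEG-high and 69.8 CPM in IEG-low LEC, and Pmepa1 239.9 and 251.6 CPM), so their direction in the other libraries depends on the scaling. Skil, a repressor of SMAD activity that TGF-beta induces, averaged 244 ± 47.0 CPM in IEG-high and 68.0 ± 11.99 CPM in IEG-low LEC (log2 fold change 2.08, adjusted p = 3.49e-07). Ccn1, a matricellular protein gene, averaged 856 CPM in IEG-high and 159 CPM in IEG-low LEC (2.75, adjusted p = 1.44e-05). Ranking LEC by immediate early RNA favours any gene that varies with that RNA. The part of this choice of cells in the values of Ccn1 and the other called genes was not tested. Tgfb2 averaged 269 CPM in IEG-high and 201 CPM in IEG-low LEC (0.67, adjusted p = 0.0001).

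LEC also differ along an axis marked by Clca3a1 at one end and Itih5 at the other. Cells with at least 1 UMI of Clca3a1 and none of Itih5 (1042, 1124 and 1323 in libraries 1, 2 and 3) were set against cells with at least 1 UMI of Itih5 and none of Clca3a1 (2516, 1667 and 3321). Id3, Acvrl1, Eng and Tgfbr3 were higher on the Clca3a1 side, 4 of 9 genes tested, where 20.7% of 12844 genes were called, 9.57% higher and 11.1% lower. Their median log2 fold change was 0.20, against -0.01 over all genes. None of the 10 genes was called lower, none had an unadjusted p under 0.05 in that direction (0 of 9), and DESeq2 called 3 higher and 0 lower.

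Id3 had 185, 187 and 197 CPM on the Clca3a1 side, against 109.5, 140 and 134 CPM on the Itih5 side (log2 fold change 0.63 ± 0.06, edgeR adjusted p = 0.000663). Acvrl1 had 73.9, 76.4 and 71.2 CPM on the Clca3a1 side, against 55.8, 51.4 and 52.4 CPM on the Itih5 side (0.52 ± 0.06, adjusted p = 0.000803). Neither gene overlapped between the sides, and both calls held under all 11 alternatives, with Id3 at 0.77 without the mixed barcodes. Eng averaged 371 ± 11.4 CPM on the Clca3a1 side and 322 ± 22.7 CPM on the Itih5 side (0.26, adjusted p = 0.0187), and Tgfbr3 147 ± 13.6 and 132 ± 4.36 CPM (0.20, adjusted p = 0.0377). Of 11 alternatives, 8 kept the call of Eng, which was lost without the block (adjusted p = 0.1), without library 2 (0.0608) and without library 3 (0.0843). The call of Tgfbr3 was kept by 6 of 11 and lost without the block (0.143), without library 1 (0.132), without library 2 (0.12), with DESeq2 (0.0522) and after thinning (0.051). Id2 did not pass in all LEC (0.25, adjusted p = 0.0781) and passed without the mixed barcodes (0.45 ± 0.09, adjusted p = 9.65e-05), where it averaged 21.7 CPM on the Clca3a1 side and 16.5 CPM on the Itih5 side. Tgfbr2 averaged 923 and 932 CPM (0.04 ± 0.04, adjusted p = 0.584), and Bmpr2 230 and 223 CPM (0.08 ± 0.06, adjusted p = 0.415).

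**Figure D5:**
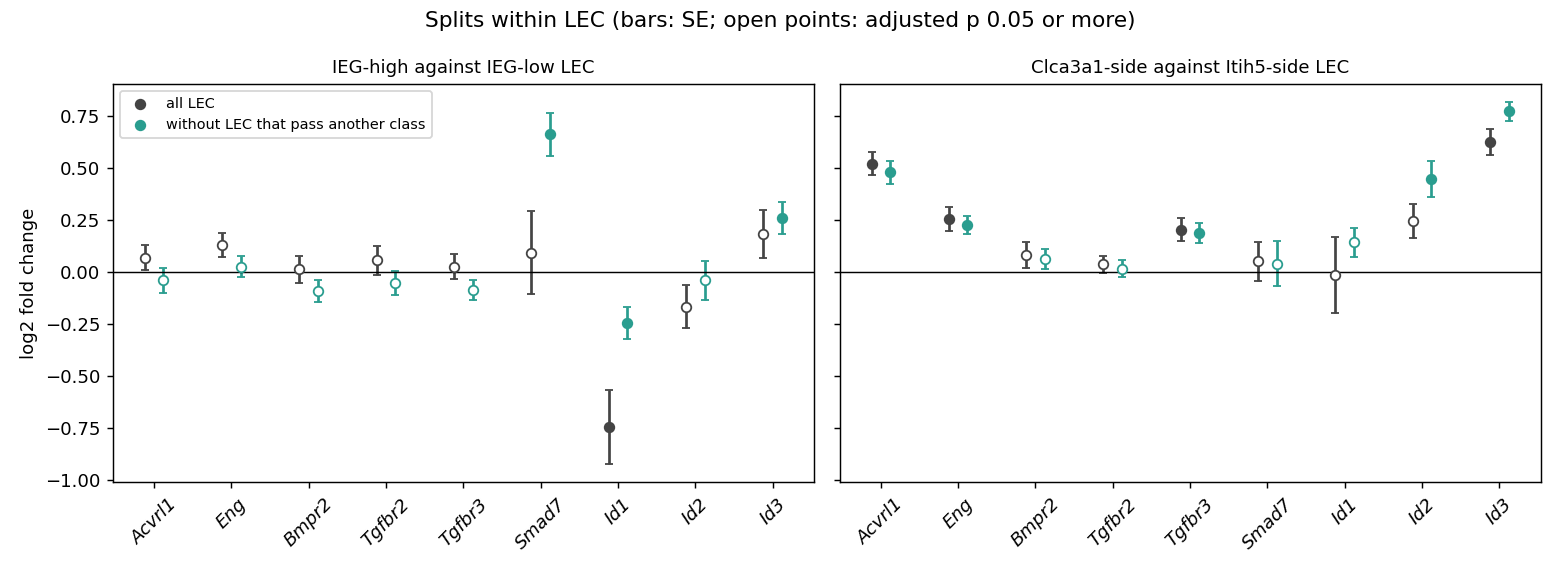
Log2 fold change of 9 genes in IEG-high over IEG-low LEC (left) and on the Clca3a1 side over the Itih5 side (right), with SE, for all LEC and without LEC that pass another class; open points did not pass an adjusted p of 0.05. Id1 is at -0.75 in all LEC and at -0.24 without the mixed barcodes on the left, and Acvrl1, Eng, Tgfbr3 and Id3 stay above 0 on the right.

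Of the listed pathway genes, 37 were tested on this axis, 8 higher and 9 lower on the Clca3a1 side. Tgfbi, a secreted matrix protein gene induced by TGF-beta, averaged 104 ± 9.00 CPM on the Clca3a1 side and 19.8 ± 9.41 CPM on the Itih5 side (log2 fold change 2.53, adjusted p = 0.000149; 3.20 without the mixed barcodes). Ccn1 averaged 381 CPM on the Clca3a1 side and 615 CPM on the Itih5 side (-0.64, adjusted p = 0.000333). Acvr2a, a type II receptor gene for activins, averaged 23.5 and 33.7 CPM (-0.47, adjusted p = 0.00199), and Pmepa1 195 and 272 CPM (-0.42, adjusted p = 0.0012). Summed immediate early genes were 19410 to 25790 CPM on the Clca3a1 side and 20090 to 30140 CPM on the Itih5 side. Malat1 was at 14030, 7857 and 9166 CPM on the Clca3a1 side, against 15560, 9183 and 10240 CPM on the Itih5 side. Median depth was 7594, 6971 and 6571 UMIs on the Clca3a1 side, against 8922, 7881 and 7403 UMIs. Id3, Acvrl1 and Eng were higher in Malat1-low than in Malat1-high LEC of every library, and Tgfbr3 was lower. The part of immediate early genes, Malat1 and depth in the values on this axis was not tested.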

How the data were processed

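The matrices hold raw UMI counts, and the deposited counts are per gene and barcode. Per the submitters' processing notes, Cell Ranger 6.1.2 and bcl2fastq 2.2 were used with mm10; no release of the annotation is named in those notes. Whether doublets had been removed is not stated, and no caller was run. Barcodes under 500 genes or over 15% mitochondrial UMIs were dropped, and the rest gated by markers: Prox1 of at least 1 and Lyve1 of at least 5 UMIs for LEC, and for other classes at least 3 markers with at least 2 UMIs each, no Prox1 and no other class passed. Emcn and Cd300lg, counted among the 6 BEC markers, were also found in LEC. UMIs were summed per library and class (at least 10 cells) and given as CPM. The 2 sums of each library come from 1 pool of animals and 1 run, so library was a block. edgeR 4.0.16 (TMM, filterByExpr, quasi-likelihood F test, R 4.3.3) was fitted over all genes but the gate genes, which were left out before adjustment at 0.05, and the SE was taken as the fold change over the root of F. Leaving gate genes out of the class comparisons was decided in addition to the design. The scripts were tested on simulated data. DESeq2 1.42.0, other filters, gates, thinning and left-out libraries were tried. Gene positions are GENCODE's on GRCm38. The members and lists were chosen with earlier results of these data known. Named pathway genes are up to 3 per list, direction and comparison, by size, past the threshold, in the same direction in 3 libraries, with at least 20 CPM in the higher group. One gene that this rule names is not reported here. The libraries' LEC differed by far more than sampling noise (chi-square per degree of freedom 73.1 to 131). Technical differences alone could give such values, so they do not show that the libraries are independent. The libraries were counted as 3 samples.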

Additional observations from a re-analysis of the deposited data

How the results depend on the processing

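Settings are named once. The block is library, and 4 calls of the 10 genes were lost without it, each named above: Smad7 against mural cells, Id1 by immediate early genes, and Eng and Tgfbr3 on the Clca3a1 axis. It changed no other call of theirs. Against BEC, 2526 genes were called with the block, and 1670 (without library 2) to 2107 without 1 library. Against mural cells 5636 were called, 3630 (without library 2) to 5361 without 1 library, and 2995 after thinning to 3000 UMIs. In IEG-high against IEG-low LEC 4822 were called, 3212 (without library 3) to 4253 without 1 library, 2618 with no replicate block and 3006 with DESeq2. On the Clca3a1 axis 2655 were called, 1232 (without library 3) to 2353 without 1 library, 811 with no replicate block, 1539 with DESeq2 and, in an alternative chosen after seeing the data, 4020 without the mixed barcodes. DESeq2 called 1874 genes against BEC, of which 43.0% were higher in LEC, where edgeR had 55.4%. For the 10 genes, no change of sign touched a value called in the main fit. Smad7 by immediate early genes, called without the mixed barcodes but not in the main fit, is among those below that changed sign. Tgfbr3 against mural cells had a log2 fold change of -0.238 after thinning, -0.217 under the stricter barcode filter and -0.055 to 0.139 without 1 library. In IEG-high against IEG-low LEC without the mixed barcodes, Acvrl1 was at -0.039, Bmpr2 at -0.092, Tgfbr2 at -0.052 and Tgfbr3 at -0.088. After thinning, Bmpr2 was at -0.073, Tgfbr2 at -0.050, Tgfbr3 at -0.118 and Id2 at 0.033. Without 1 library, Bmpr2 ranged over -0.047 to 0.088, Tgfbr3 over -0.041 to 0.065 and Smad7 over -0.106 to 0.451. On the Clca3a1 axis, Smad7 was at -0.053 under the stricter barcode filter and at -0.040 to 0.121 without 1 library, and Id1 was at 0.143 without the mixed barcodes and at -0.244 to 0.324 without 1 library, the highest without library 2 (adjusted p = 0.05). That value of Id1 without library 2 counted as called, since its adjusted p was under 0.05 before rounding. The cause of these changes of sign was not tested. Levels taken as the mean over cells moved by more than 1 SD in 14 of 70 pairs of gene and class. The BEC of each library gave 175180 to 477990 UMIs, which limits the precision of Smad6 and Id2 there.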
